A study of Mus musculus with 16 samples.

Results

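The respiratory chain was followed here through the transcripts of its subunits, 99 of the 36118 gene entries in the deposited tables. Members were the entries whose symbol marks a subunit of complexes I to V (mt-Nd, mt-Cytb, mt-Co, mt-Atp, Nduf, Sdh, Uqcr, Cox4 to Cox8 and Atp5 symbols), and 11 entries annotated as pseudogenes were left out. Of these members 13 are encoded by mitochondrial DNA and 86 by nuclear DNA. The symbol places Ndufa4 with complex I, although its protein is known as a subunit of complex IV, and it brings in Cox7a2l, an assembly factor of supercomplexes, and Atp5s, a factor that is no core subunit of the ATP synthase.

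All libraries came from male Apc Min/+ mice, which carry a truncating allele of Apc in every cell and form intestinal tumours. The mice were 8 weeks old and drank water with 0.2535 mg/ml of N-glycolylneuraminic acid (Neu5Gc, a sialic acid that mice make and that red meat contains) in the high group, or 0.0127 mg/ml in the low group, for 14 days. RNA was sequenced from the colorectum (6 high and 4 low libraries) and from the liver (3 high and 3 low). No group went without added Neu5Gc, the colorectal samples are not divided in the labels into tumour and mucosa, and the labels do not tie a library to a mouse, so the p-values below measure the spread between these libraries. The series' design text gives 6 mice to the low and 4 to the high arm, against 6 high and 4 low colorectum libraries in the sample labels, which were followed.

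Complex I (NADH dehydrogenase) and complex II (succinate dehydrogenase) pass electrons to coenzyme Q, complex III passes them on to cytochrome c and complex IV (cytochrome c oxidase) to oxygen, and complex V uses the proton gradient so built to make ATP. Mitochondrial DNA encodes core subunits of complexes I, III, IV and V and none of complex II. It is transcribed as long precursors from which the messenger RNAs are cut, while the nuclear subunits are transcribed gene by gene in the nucleus and imported as proteins. The nuclear genome also holds old copies of mitochondrial DNA, and reads from a mitochondrial messenger RNA match these copies where the sequences are the same.

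For 4 mitochondrial genes with such copies the first 60 bases of the shared stretch are shown because the liver results below turn on them. The sequences are GENCODE M21 transcripts of the mouse genome build GRCm38, 5′ to 3′, and capitals mark bases that differ between the gene and its copy on chromosome 1.
mt-Co3: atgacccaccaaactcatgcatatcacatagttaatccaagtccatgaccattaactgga
Gm28437: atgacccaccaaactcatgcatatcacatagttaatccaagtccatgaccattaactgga
mt-Atp6: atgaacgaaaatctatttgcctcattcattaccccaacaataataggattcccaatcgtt
Gm10925: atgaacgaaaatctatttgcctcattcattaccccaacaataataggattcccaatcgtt
mt-Co2: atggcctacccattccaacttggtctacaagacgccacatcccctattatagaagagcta
Gm28661: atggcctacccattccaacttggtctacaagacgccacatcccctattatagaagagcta
mt-Co1: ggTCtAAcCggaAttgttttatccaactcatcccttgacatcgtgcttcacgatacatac
Gm29216: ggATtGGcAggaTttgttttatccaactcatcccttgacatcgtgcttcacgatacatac

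Gm28437 was the same as mt-Co3 over all 783 aligned bases, Gm10925 as mt-Atp6 over 678 and Gm28661 as mt-Co2 over 681. Gm29216 differed from mt-Co1 at 6 of 492 aligned bases, each within the stretch shown. A read from the identical stretches has no base that assigns it to the gene or to the copy. Among nuclear members, Atp5g2 was identical to Gm10175 over 645 bases, Ndufb4 to Ndufb4c over 390 and Atp5l to Gm10221 over 309. In all, 15 members (5 mitochondrial and 10 nuclear) have an annotated pseudogene copy at least 95% identical with a mean of 1 TPM or more, and their levels are therefore uncertain.

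Levels between genes are given in transcripts per 1000000 (TPM), which corrects for gene length, and single genes between libraries in counts per 1000000 scaled by TMM factors (CPM). In units of 1000000, estimated counts per library summed to between 46.1 and 70.7 in high and between 48.3 and 73.9 in low colorectum, and to between 68.8 and 86.1 in high and between 47.5 and 55.9 in low liver. Hepatocyte markers summed to between 94890 and 113200 CPM in the liver libraries. They stood at 789.6 to 1263 CPM in the colorectum libraries except low library 4, which had 4227 CPM. Colorectal epithelial markers summed to between 14650 and 24200 CPM in high and between 20560 and 33280 CPM in low colorectum. Of these 14 markers, 10 had positive and 4 negative log2 changes of high against low, so the sums do not show the direction of most. Muc2 averaged 2640 CPM in high and 11200 CPM in low colorectum, and Car1 449 CPM in high and 4390 CPM in low colorectum.

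In low colorectum, 2 libraries stood apart from the others. Low library 3 had 4978 CPM of 16 pancreatic acinar markers, against 302.2 to 502.9 CPM in high colorectum and 104.3 to 123.1 CPM in the other low libraries. In each colorectum library but low library 3, most of that sum was 1 marker, Cela1. It had 279 to 436 CPM in high libraries, 71.8 to 97.1 CPM in low libraries 1, 2 and 4, and 536 CPM in low library 3. Low library 4 had 12040 CPM of 16 kidney tubule markers, against 70.97 to 123 CPM in high colorectum and 109.7 to 198.1 CPM in the other low libraries. In the liver, pancreatic acinar markers summed to 3609 CPM in high library 1 and 8676 CPM in low library 1, and to between 32.5 and 57.61 CPM in the other 4. Small intestinal enterocyte markers summed to between 301.4 and 596.1 CPM in high colorectum and between 766.2 and 1548 CPM in low colorectum. Of these 10 markers 4 were called lower, where 8.21% of all genes were, and 3 of the 10 had positive log2 changes. The 1548 CPM was that of low library 4, where 1 marker, Mep1a, had 943 CPM, against 336 to 376 CPM in the other low libraries. The part of these markers' tissues in the respiratory chain values was not tested, and colorectum results are given with and without low libraries 3 and 4.

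In the colorectum, the mitochondrially encoded members summed to 6.59, 8.75, 6.56, 5.09, 5.73 and 7.35% of all TPM in high libraries 1 to 6, against 8.70, 8.67, 23.8 and 11.2% in low libraries 1 to 4. The nuclear members summed to 5.66, 4.64, 4.99, 4.68, 5.41 and 6.00% in the high libraries, against 4.98, 5.34, 2.40 and 5.59% in the low libraries. High library 2 overlapped low libraries 1 and 2 for the mitochondrial share, and low library 3 had both the highest mitochondrial and the lowest nuclear share of the 10. The ratio of the mitochondrial to the nuclear sum averaged 1.29 ± 0.307 in high colorectum (SD, n = 6) and 3.82 ± 4.06 in low colorectum (SD, n = 4), and 1.79 in low colorectum without library 3. These shares and ratios leave out the pseudogene copies. With copies added, the mitochondrial share was 7.5 to 12.5% in high and 12.4 to 30.1% in low colorectum.

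In the liver, mitochondrially encoded members summed to 11.7, 10.3 and 8.53% of all TPM in high libraries 1 to 3, against 10.3, 10.1 and 11.1% in low libraries 1 to 3. Nuclear members summed to 1.89, 2.0 and 2.12% in high liver, against 2.25, 2.38 and 2.39% in low liver. The mitochondrial shares overlapped between the groups, while each nuclear share in high liver was below each in low liver. On the TPM scale 41 of 81 nuclear members (50.6%) stood lower in each high than in each low liver library and 4 (4.94%) higher. Of all genes 33.6% stood lower in this way and 3.35% higher, so this order is shared by many genes. The ratio of the sums averaged 5.13 ± 1.08 in high liver and 4.50 ± 0.213 in low liver (SD, n = 3 each). With copies added, the mitochondrial share was 14.6, 14.0 and 11.4% in high liver, against 13.1, 13.6 and 13.1% in low liver.

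**Figure D1:**
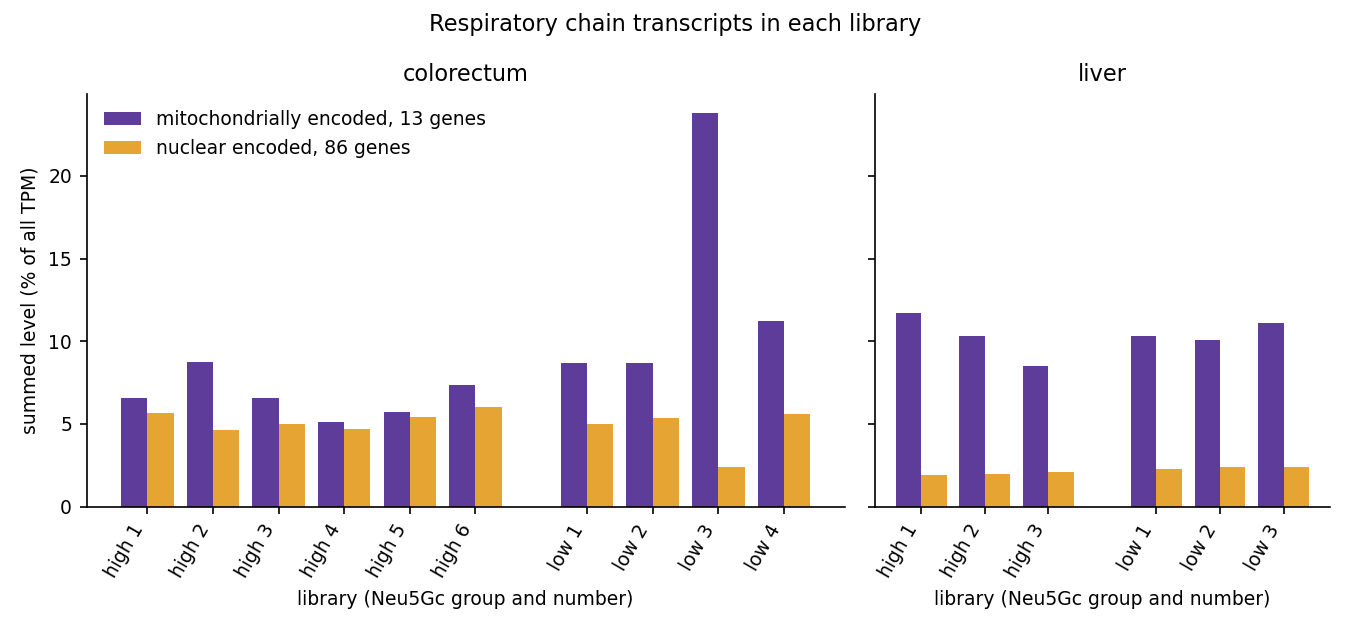
Summed level of the 13 mitochondrially encoded and the 86 nuclear encoded members in each library, as a percentage of all TPM on the y axis, for the colorectum (left) and the liver (right), with high libraries left of low ones. Low colorectum library 3 has 23.8% mitochondrial and 2.40% nuclear, while the other 9 colorectum libraries have 5.09 to 11.2% and 4.64 to 6.00%. Pseudogene copies are not included.

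Within the colorectum, mt-Co1 had the highest mean level of the mitochondrial genes at 21000 ± 9790 TPM (SD, n = 10), before mt-Atp6 at 12500 ± 5880, mt-Co3 at 10700 ± 5470 and mt-Nd3 at 10300 ± 3790 TPM. These SDs are over the libraries of both groups and do not measure the difference between genes. In each library mt-Atp6 lay above mt-Co3, while mt-Nd3 lay above mt-Atp6 in some libraries and below it in others. With identical copies added, mt-Atp6 had 7174 to 27660 TPM. In every library mt-Co2 (10120 to 59060 TPM) and mt-Co3 (9718 to 35220 TPM) then lay above it. The order of these genes thus depends on whether copies are counted. The highest nuclear members by mean TPM were Atp5b (3260 ± 745), the catalytic beta subunit of complex V, Cox8a (2340 ± 591) and Cox6a1 (2280 ± 512), both small subunits of complex IV. In the liver mt-Co1 also led at 17700 ± 1470 TPM (SD, n = 6), and Atp5b led the nuclear members at 1150 ± 65.4 TPM. Complex II had the smallest summed level of the complexes in both tissues. Its 4 genes summed to 1040 ± 97.0 TPM in high colorectum and 1060 ± 190 TPM in low colorectum, and to 587 ± 15.2 TPM in high liver and 764 ± 59.1 TPM in low liver.

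The first comparison sets high against low Neu5Gc intake in the colorectum. Of 96 members tested there, 1 rose and 3 fell in high libraries at an adjusted p of at most 0.05 (edgeR quasi-likelihood test, Benjamini-Hochberg over 17961 genes). Ndufa6 was the one that rose, and mt-Nd5, mt-Nd4l and mt-Nd2 were the 3 that fell. Of all genes tested 7.29% were called higher and 8.21% lower, so the 4 calls among 96 members (4.17%) are fewer than the background share of 15.5%. The log2 changes of all 13 mitochondrial genes were negative, between -1.56 and -0.62 with a median of -0.97, and those of 73 of 83 nuclear members were positive, with a median of 0.28. The median over all genes was -0.02. The mitochondrial median was negative in every fit run. It was -0.41 without low library 3, where 2 members were called and no mitochondrial gene was, and -0.21 without low libraries 3 and 4, where no member was called. No member was called either without any 1 of high libraries 1, 3, 4, 5 or 6.

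Among the 7 mitochondrial genes of complex I, mt-Nd5, part of the proton-pumping membrane arm, had 1341, 1599, 1120, 962.1, 1078 and 1279 CPM in high libraries 1 to 6. In low libraries 1 to 4 it had 1580, 1444, 8416 and 3063 CPM. High library 2 stood above both low libraries 1 and 2, and only low libraries 3 and 4 lay clear of the high group. Its log2 change was -1.56 ± 0.44 (SE, adjusted p = 0.0361, edgeR). Without low library 3 it was -0.72 (adjusted p = 0.0593), and without low libraries 3 and 4 it was -0.33 (adjusted p = 0.288).

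The gene mt-Nd4l, which encodes a small membrane subunit, had 209.7, 301, 179.3, 208.5, 193.3 and 211.1 CPM in high libraries, against 224, 266.8, 1406 and 606.2 CPM in low libraries. The groups overlapped through high library 2. Its log2 change was -1.53 ± 0.45 (adjusted p = 0.0437, edgeR), and -0.21 without low libraries 3 and 4 (adjusted p = 0.503). Another membrane subunit, mt-Nd2, had 1076, 1049, 961.9, 641.3, 957.8 and 1003 CPM in high libraries, against 1116, 989, 4415 and 2423 CPM in low libraries. Low library 2 lay within the high group. The change of mt-Nd2 was -1.24 ± 0.37 (adjusted p = 0.0440, edgeR), and -0.19 without low libraries 3 and 4 (adjusted p = 0.567).

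The other 10 mitochondrial genes did not pass the threshold in the colorectum. Within complex I the log2 change of high against low was -1.34 ± 0.45 for mt-Nd4 (adjusted p = 0.0678), -1.23 ± 0.43 for mt-Nd1 (adjusted p = 0.0744), -0.83 ± 0.38 for mt-Nd6 (adjusted p = 0.154) and -0.62 ± 0.24 for mt-Nd3 (adjusted p = 0.0986, edgeR throughout). The one complex III gene, mt-Cytb, which holds the haem groups of the quinone cycle, stood at -0.97 ± 0.35 (adjusted p = 0.0838). In complex IV the values were -1.11 ± 0.38 for mt-Co2, -0.83 ± 0.31 for mt-Co3 and -0.80 ± 0.28 for mt-Co1, the catalytic subunit (adjusted p = 0.0716, 0.0878 and 0.0709). In complex V, mt-Atp8 stood at -0.78 ± 0.37 and mt-Atp6, part of the proton channel, at -0.71 ± 0.30 (adjusted p = 0.177 and 0.129). In CPM the high and low groups overlapped for each of the 13, where 6.43% of all genes had each high library below each low one. In TPM, mt-Co1 and mt-Nd3 were the 2 of 13 whose high libraries all lay below the low ones, at 11540 to 20050 TPM in high against 21650 to 46400 TPM in low for mt-Co1, and 7426 to 9669 TPM in high against 9788 to 19760 TPM in low for mt-Nd3. The share of all genes with that order in TPM was 6.28%.

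**Figure D2:**
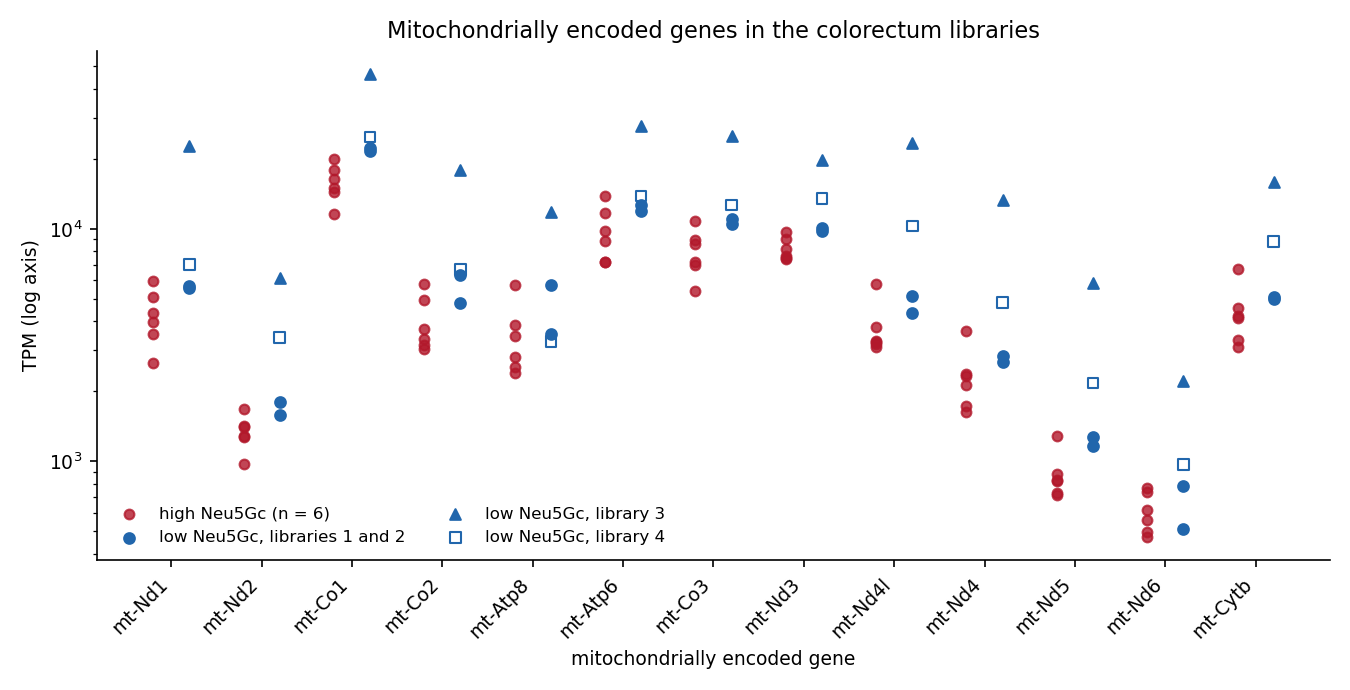
TPM of each of the 13 mitochondrially encoded genes (log axis) in the colorectum, with the 6 high libraries left and the 4 low libraries right, one point per library, genes in their order on mitochondrial DNA. Low library 3 (triangles) is the highest point of all 13 genes and low library 4 (open squares) lies between it and the other 2 low libraries for 12 of them, the exception being mt-Atp8.

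The 13 genes did not stand equally high in low library 3. Over the mean of low libraries 1 and 2 it stood at 4.95-fold for mt-Nd4l, 4.82-fold for mt-Nd4 and 4.81-fold for mt-Nd5, but at 1.99-fold for mt-Nd3, 2.11-fold for mt-Co1 and 2.25-fold for mt-Atp6. Low library 4 showed 2.17-fold for mt-Nd4l and 2.03-fold for mt-Nd2, and 0.706-fold for mt-Atp8. The mean of the high libraries over low libraries 1 and 2 lay between 0.721-fold for mt-Nd5 and 0.942-fold for mt-Nd6, below 1 for each of the 13.

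The nuclear members of low library 3 went the other way. Of 82 nuclear members with at least 1 TPM in low libraries 1 and 2, 79 stood below 1-fold in low library 3, with a median of 0.498-fold, and for 68 of the 82 it was the lowest of the 10 libraries. The 3 at or above 1-fold were Ndufv2, a flavoprotein-arm subunit of complex I, at 1.17-fold, Uqcrc2, a core subunit of complex III, at 1.12-fold, and Ndufa9 at 1-fold. The lowest were Cox8b at 0.0493-fold and Atp5k at 0.0535-fold. Median folds were 0.763 for the 4 complex II genes, 0.542 for complex I, 0.497 for complex V, 0.486 for complex III and 0.369 for complex IV.

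The folds of low library 3 differed by transcript length. Relative transcript length, taken from the ratio of deposited counts to TPM and set to 1 for the median gene and the fold of low library 3 ran in the same direction across the 82 nuclear members (Spearman's rho = 0.68, genes of 1 library and so not independent). The 41 shorter members had a median of 0.396-fold and the 41 longer ones 0.584-fold. Low library 4, by the same measure, had a rho of 0.07 with medians of 1.09-fold and 1.08-fold. In the high libraries rho ran from -0.55 in library 6 (1.18-fold and 1.06-fold) to -0.03 in library 3. The members' folds thus also ran with length elsewhere, in the opposite direction and over a narrower range. Low library 1 had 0.43 (0.964-fold and 0.998-fold) and low library 2 had -0.43. These 2 libraries form the base of the folds, so their values mirror each other and are no separate evidence. Over 14690 genes of any kind, rho was 0.39 in low library 3 and between -0.19 and 0.06 in the other 9, and the median fold in low library 3 was 0.624 in the shortest and 1.06 in the longest of 5 equal classes of genes. Cox8b has the shortest length of the 82 and Atp5k one of the shortest, at 0.0605 and 0.0664 of the median gene, while Uqcrc2 stands at 0.814.

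**Figure D3:**
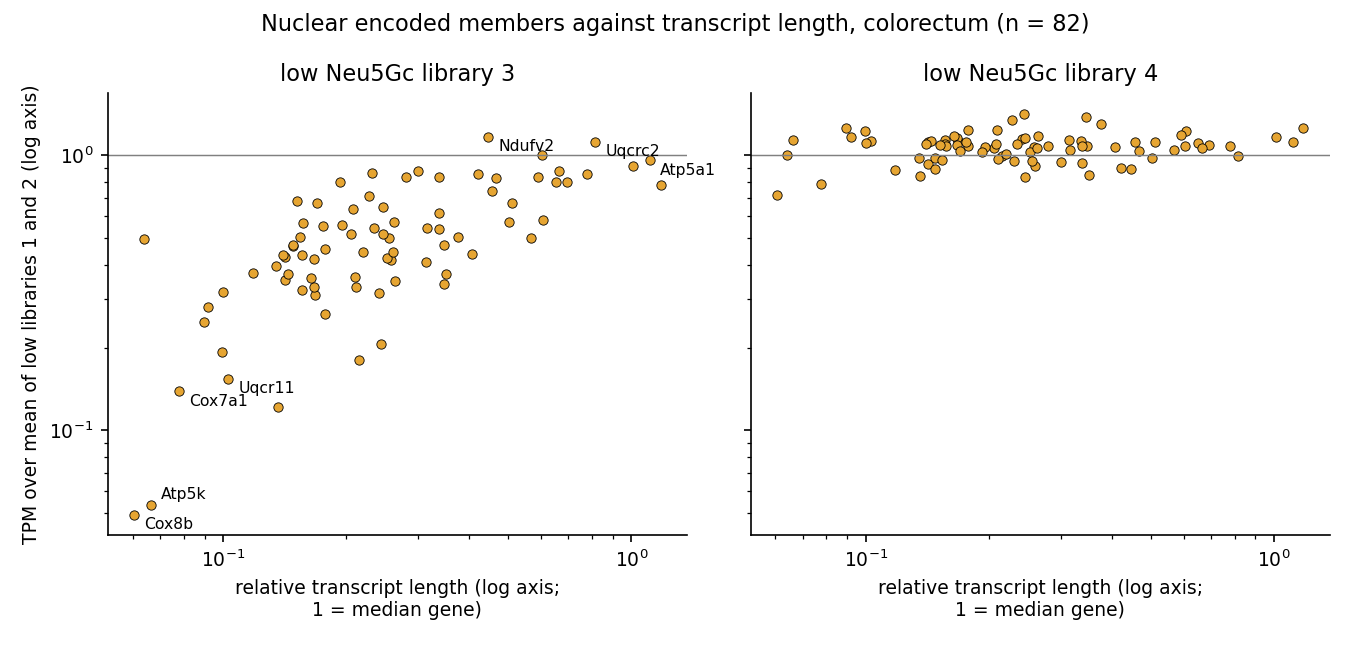
TPM of 82 nuclear encoded members in low colorectum library 3 (left) and low library 4 (right), each over the mean of low libraries 1 and 2 (log axis), against relative transcript length (log axis). In low library 3 the points climb with length from 0.0493-fold for Cox8b to about 1-fold for the longest members (rho = 0.68), and in low library 4 they lie around 1-fold at every length (rho = 0.07).

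Of the 38 nuclear members of complex I, 34 had positive log2 changes in the colorectum, with a median of 0.29, and Ndufa6 passed the test. Ndufa6, an accessory subunit of the LYR family at the peripheral arm, had 293.3, 213.1, 215.8, 212.2, 238.7 and 277.5 CPM in high libraries, against 166.6, 184.3, 135.7 and 207 CPM in low libraries. Each high library lay above each low one. The log2 change was 0.48 ± 0.15 (adjusted p = 0.0488, edgeR). It passed in 2 of the 10 fits that left out 1 library, and the adjusted p was 0.108 without low libraries 3 and 4, with a change of 0.42. Ndufa7, an accessory subunit, and Ndufb1-ps, an entry that the annotation used lists as a non-coding RNA and the only member not annotated as protein coding, stood at 0.47 ± 0.21 (adjusted p = 0.139) and 0.50 ± 0.21 (adjusted p = 0.123).

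Ndufa4 and its hypoxia-linked paralogue Ndufa4l2 were among the 4 complex I symbols with negative values, at -0.31 ± 0.23 (adjusted p = 0.371) and -0.39 ± 0.23 (adjusted p = 0.269). Without low library 3, Ndufa4 was called lower in high colorectum, at -0.51 (adjusted p = 0.0488, edgeR), and Cox7a1 was called higher, at 0.78 (adjusted p = 0.045). No other member was called in that fit.

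None of the 4 genes of complex II, the one complex without a mitochondrial gene, passed the test. The log2 changes in the colorectum were -0.12 ± 0.15 for Sdha, the flavoprotein, -0.04 ± 0.17 for Sdhb, the iron-sulphur subunit, and 0.09 ± 0.17 and 0.28 ± 0.17 for the membrane anchors Sdhc and Sdhd. Their adjusted p ran from 0.283 to 0.906. In complex III, 7 of 8 nuclear members were positive with a median of 0.27. The small subunits Uqcr10 and Uqcr11 stood at 0.55 ± 0.29 (adjusted p = 0.215) and 0.46 ± 0.43 (adjusted p = 0.482), and Uqcr11 had 32.27 CPM in low library 3 against 160.8 to 272.1 CPM in high libraries and 169.7 to 233.1 CPM in the other low libraries.

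In complex IV, 13 of 16 tested nuclear members were positive with a median of 0.31, and none passed. Cox7a1, the heart and muscle form of subunit 7a, had the largest value of the nuclear members, with 59.99, 32.57, 35.46, 28.15, 47.44 and 54.24 CPM in high libraries, against 24.81, 27.21, 4.172 and 23.34 CPM in low libraries. The groups did not overlap, as for 7.59% of all genes in that direction. The log2 change was 1.11 ± 0.45 (adjusted p = 0.117, edgeR). Cox7a2l had 217.4 to 293.5 CPM in high libraries and 212.1 to 218.3 CPM in low libraries, at 0.28 ± 0.10 (adjusted p = 0.0947). Cox6b1 and Cox7c stood at 0.49 ± 0.32 and 0.38 ± 0.20 (adjusted p = 0.318 and 0.210).

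All 17 tested nuclear members of complex V were positive in the colorectum, between 0.01 and 0.60 with a median of 0.24, and none passed the test. Atp5g3, which encodes the c subunit of the rotor ring, stood at 0.43 ± 0.30, and the peripheral and membrane subunits Atp5l and Atp5j2 at 0.39 ± 0.23 and 0.38 ± 0.23 (adjusted p = 0.336, 0.263 and 0.277). Low library 3 had 434.3 TPM of Atp5l and 530 TPM of its identical copy Gm10221, which was listed at 0 in the other 9 colorectum libraries, and the sum of 964.3 TPM lay within the range of the others (947.7 to 1241 TPM). The median over all 83 nuclear members tested was 0.11 without low library 3 and 0.17 without low libraries 3 and 4.

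**Figure D4:**
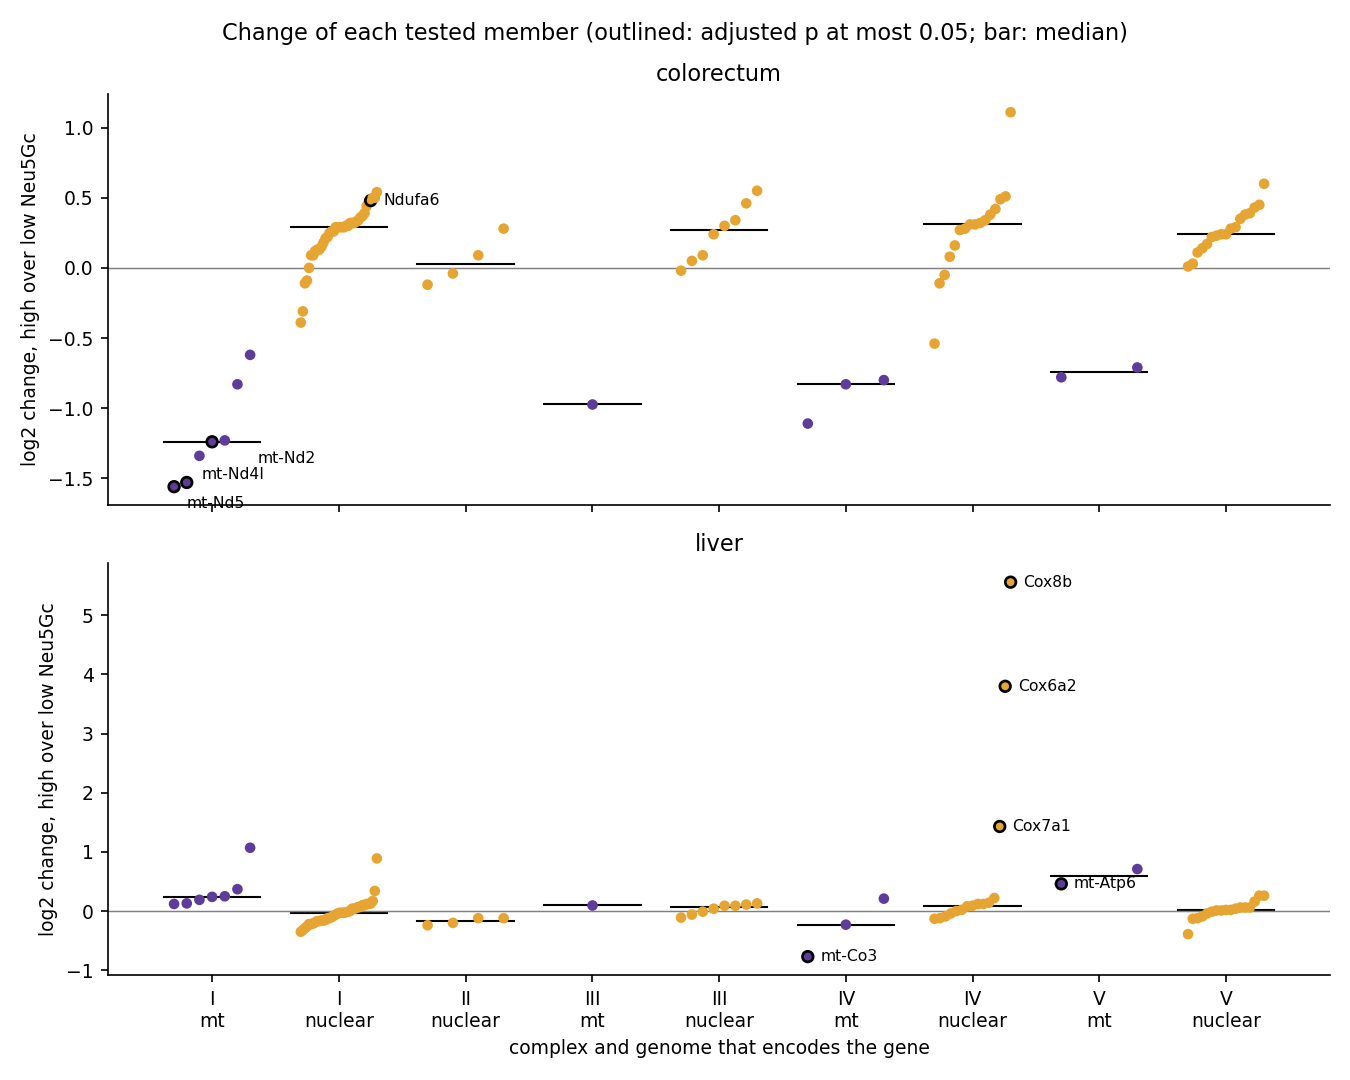
Log2 change of high over low Neu5Gc for each tested member, by complex and by the genome that encodes it, in the colorectum (top, 96 members) and the liver (bottom, 95 members), on separate y scales, where outlined points passed an adjusted p of 0.05 and bars are medians. In the colorectum the mitochondrial points lie between -1.56 and -0.62 and the nuclear medians between 0.02 and 0.31, and in the liver Cox8b, Cox6a2 and Cox7a1 lie clear of the other nuclear members.

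In the liver, 4 of 95 members tested rose and 1 fell in high libraries (edgeR, Benjamini-Hochberg over 15522 genes). Those that rose were Cox6a2, Cox8b and Cox7a1, all striated muscle forms of complex IV subunits, and mt-Atp6, and mt-Co3 fell. Of all genes 3.15% were called higher and 3.32% lower, 6.47% in all, against 5.26% of the members. All genes called were 489 higher and 515 lower, but 306 and 730 when scaled by library totals and 147 and 1550 on log2(TPM + 1). With the replicate number as a block, 630 of all genes were called in place of 1004. The median log2 change was 0.21 over the mitochondrial and -0.00 over the nuclear members, against 0.00 over all genes. On the log2(TPM + 1) scale, where the median of all genes was -0.17, these medians were 0.00 and -0.23.

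The gene mt-Co3 had 8088, 6977 and 8209 TPM in high liver, against 15130, 14550 and 16200 TPM in low liver, and the groups did not overlap. Its log2 change was -0.77 ± 0.10 (adjusted p = 0.00237, edgeR). Its identical copy Gm28437 had 7284, 9783 and 5502 TPM in high liver, against 270.2, 2828 and 59.67 TPM in low liver, an order opposite to that of the gene. Gene and copy together had 15370, 16760 and 13710 TPM in high liver, against 15400, 17380 and 16260 TPM in low liver. These sums overlapped, and with copies added to their genes before the fit the change was 0.11 ± 0.07 (adjusted p = 0.402, edgeR).

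The subunit gene mt-Atp6 had 16660, 15910 and 13010 TPM in high liver, against 11930, 12760 and 13310 TPM in low liver. In TPM high library 3 lay within the low group. In CPM the gene had 6342, 6412 and 5679 in high liver, against 4569, 4290 and 4521 in low liver. There the groups did not overlap, as for 14.5% of all genes in that direction. Its log2 change on the count scale was 0.46 ± 0.07 (adjusted p = 0.00489, edgeR), with the replicate number as a block the adjusted p was 0.0634, and without low library 1 it was 0.0526. Its copy Gm10925 had 938.6, 485.1 and 166.8 TPM in high liver, against 3444, 3025 and 1689 TPM in low liver. Gene and copy together had 17600, 16400 and 13170 TPM in high liver, against 15370, 15780 and 15000 TPM in low liver, which overlapped. With copies added the change was 0.23 ± 0.08 (adjusted p = 0.128, edgeR).

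For mt-Co2 the copy held more than the gene, at 13120, 15560 and 13080 TPM in high liver, against 13460, 15060 and 9027 TPM in low liver for Gm28661. The gene itself had 5136, 3936 and 3141 TPM in high liver, against 4038, 3378 and 9124 TPM in low liver. Low library 3 was the highest of the 6 for the gene and the lowest for the copy. The log2 change of mt-Co2 was -0.23 ± 0.42 alone (adjusted p = 0.806) and 0.20 with the copy added. No mitochondrial gene passed the test in liver once copies were added, and the called members were then Cox6a2, Cox8b and Cox7a1. In the colorectum the same step left the 4 calls as they were.

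**Figure D5:**
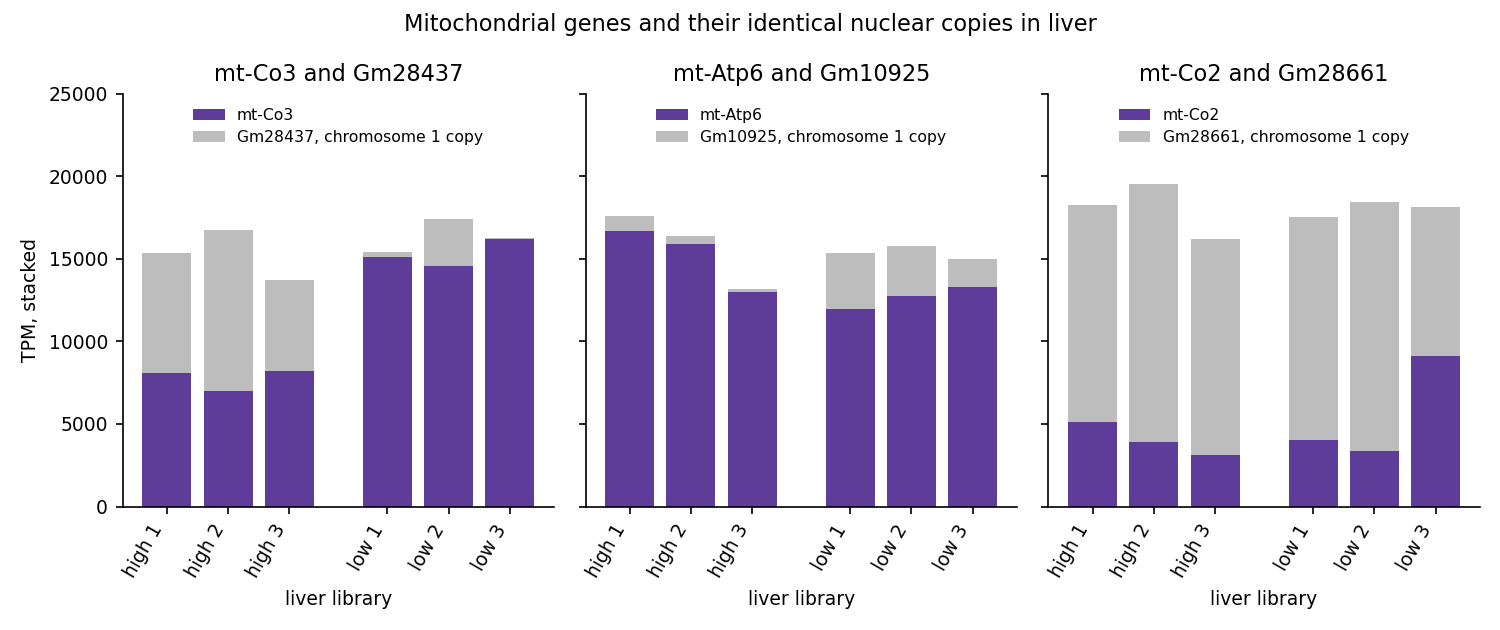
TPM of mt-Co3, mt-Atp6 and mt-Co2 (dark) with their identical chromosome 1 copies stacked on top (grey) in each liver library, high left of low. The dark bars of mt-Co3 reach 6977 to 8209 TPM in high and 14550 to 16200 TPM in low libraries, while gene and copy together reach 13710 to 16760 TPM in high and 15400 to 17380 TPM in low.

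The other mitochondrial genes did not pass in the liver. The log2 changes of complex I genes were 1.07 ± 0.57 for mt-Nd6, 0.37 ± 0.20 for mt-Nd4l, 0.25 ± 0.08 for mt-Nd3, 0.24 ± 0.09 for mt-Nd4, 0.19 ± 0.10 for mt-Nd1, 0.13 ± 0.14 for mt-Nd2 and 0.12 ± 0.12 for mt-Nd5, with adjusted p from 0.0956 to 0.633. In TPM mt-Nd6 stood at 2922, 840.4 and 759.9 in high liver, against 752.1, 979.7 and 686.7 in low liver, so its value rests on high library 1. The changes were 0.71 ± 0.20 for mt-Atp8 (adjusted p = 0.0670), 0.21 ± 0.06 for mt-Co1 (adjusted p = 0.0685) and 0.11 ± 0.08 for mt-Cytb (adjusted p = 0.449). With the replicate number as a block, mt-Atp8 passed with an adjusted p of 0.0203 (edgeR).

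The 3 muscle isoforms of complex IV were low in both liver groups. Cox6a2 had 2.164, 1.399 and 2.238 CPM in high liver, against 0.1659, 0.0873 and 0.1592 CPM in low liver. Each high library lay above each low one, and the log2 change was 3.80 ± 0.35 (adjusted p = 5.4e-04, edgeR). Cox8b had 1.876, 1.918 and 2.599 CPM in high liver, against 0.1106, 0.01746 and 0 CPM in low liver, with a log2 change of 5.56 ± 0.60 (adjusted p = 0.00131, edgeR) that depends on few reads in the low group. Cox7a1 had 1.703, 1.556 and 2.81 CPM in high liver, against 0.7558, 0.8729 and 0.6169 CPM in low liver, and a change of 1.43 ± 0.29 (adjusted p = 0.0222, edgeR). Cox7a1 lost its call without high library 3 (adjusted p = 0.0526), low library 1 (0.0611) or low library 3 (0.0866).

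Of the 8 tissue-restricted isoforms in the list, 5 were tested in liver and these 3 rose. None of the 7 ubiquitous partners (Cox4i1, Cox6a1, Cox6b1, Cox7a2, Cox7b, Cox8a and Ndufa4) passed, with values between -0.13 and 0.14. Skeletal muscle markers moved with the isoforms. The 16 markers summed to 264.1, 237.8 and 324 CPM in high liver, against 16.41, 8.345 and 2.866 CPM in low liver, and 15 of the 16 were called higher, 6 of them also with the replicate number as a block. None of the 16 was at 0 in a high library, and 2 were at 0 in low library 3. Brown adipocyte markers, another cell type with Cox7a1 and Cox8b, summed to 145.6, 172.4 and 283 CPM in high liver, against 959.5, 608.7 and 714.9 CPM in low liver. Most of that sum was Elovl3, a fatty acid elongase that hepatocytes also express, and the other 9 markers summed to 25.08, 18.45 and 32.75 CPM in high liver, against 18.77, 21.51 and 15.3 CPM in low liver. Of 7 brown adipocyte markers tested, Cox8b and Cox7a1 were called higher and Elovl3 lower. The part of muscle RNA in the isoform values was not tested, and in a bulk sample more cells of a type and more RNA per cell cannot be told apart.

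Nuclear members of complex I in liver had a median of -0.04, with 24 of 38 negative, and none passed. Ndufa11, a membrane-arm subunit, stood at -0.35 ± 0.09 (adjusted p = 0.0553), Ndufs8, an iron-sulphur core subunit, at -0.26 ± 0.09 (adjusted p = 0.106) and Ndufa6 at -0.06 ± 0.10 (adjusted p = 0.780). Ndufa4l2 had 1.356, 1.327 and 1.94 CPM in high liver, against 0.8665, 0.7681 and 0.8557 CPM in low liver, without overlap, at 0.89 ± 0.25 (adjusted p = 0.0654, edgeR). The 4 complex II genes were negative, at -0.24 ± 0.08 for Sdha, -0.20 ± 0.11 for Sdhb, -0.12 ± 0.10 for Sdhc and -0.12 ± 0.09 for Sdhd, with adjusted p from 0.133 to 0.546.

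The 8 nuclear members of complex III lay between -0.11 and 0.13 in liver. In complex IV, Cox7c stood at 0.22 ± 0.10 (adjusted p = 0.217). In complex V the median was 0.02, and Atp5g1, a c subunit gene, had the most negative value at -0.39 ± 0.11 (adjusted p = 0.0689). Which nuclear members pass in liver depends on the scale, because 23 members were called on log2(TPM + 1), 4 higher and 19 lower, against 5 on the count scale. On that TPM scale 1.27% of all genes were called higher and 13.4% lower. In CPM the groups did not overlap for 23 of the 95 members, 12 higher and 11 lower in high liver, where 14.5% of all genes were so ordered higher and 14.1% lower, 28.6% together.

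The difference between the effects in colorectum and liver was tested in 1 fit over 16 libraries. Of 96 members 3 had a lower effect in the colorectum than in the liver, against 8.04% of all 18703 genes called in either direction, 3.96% in that one and 4.08% in the other. These were Cox8b at -5.51 (adjusted p = 0.00713), Cox6a2 at -4.33 (adjusted p = 0.0183) and Ndufa4l2 at -1.28 (adjusted p = 0.0373, edgeR), all 3 from the list of tissue-restricted isoforms. With the replicate number as a block none of the 3 passed, with values of -5.23, -3.65 and -1.16 (adjusted p = 0.0614, 0.169 and 0.23, edgeR). That block also used the colorectum numbers, which do not pair those libraries (correlations of -0.13 to -0.05). A block on the liver numbers alone was not run. Of the 16 fits that left out 1 library, Ndufa4l2 lost its call in 12, Cox6a2 in those without liver low library 2 or 3 (adjusted p = 0.0527 and 0.0528), and Cox8b in none. The difference was negative for each of the 13 mitochondrial genes with a median of -1.35, but none passed. The smallest adjusted p among them was 0.0813 for mt-Nd4l at -1.87, followed by 0.0967 for mt-Nd6, also at -1.87. In the colorectum itself Cox6a2 stood at -0.54 ± 0.72, Cox6b2 at -0.05 ± 0.42 and Cox8b at 0.08 ± 0.57 (adjusted p = 0.631, 0.946 and 0.938).

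Promoter motifs of the nuclear members were counted as background, and their part in the changes was not tested. RefSeq windows from 250 bases before to 50 after the start (build GRCm38.p6) were found for 66 of 85 nuclear symbols, in 71 windows. The motif of the type bound by nuclear respiratory factor NRF1, spelled here as GCGCA and GCGC with any 1 base between them and searched like the others on both strands, was in 18 of the 71 windows (25.4%), against 4.6% of all 32851 promoter windows. CCGGAAG, of the type bound by ETS factors such as GABP, was in 22.5% of the windows, against 8.86% of all. A match is a string of letters and shows no binding. The promoter of Ndufa6, the nuclear member that passed in the colorectum, held the NRF1-type motif once (chr15:82354242-82354541, minus strand, 5′ to 3′, motif in capitals).
Ndufa6 promoter: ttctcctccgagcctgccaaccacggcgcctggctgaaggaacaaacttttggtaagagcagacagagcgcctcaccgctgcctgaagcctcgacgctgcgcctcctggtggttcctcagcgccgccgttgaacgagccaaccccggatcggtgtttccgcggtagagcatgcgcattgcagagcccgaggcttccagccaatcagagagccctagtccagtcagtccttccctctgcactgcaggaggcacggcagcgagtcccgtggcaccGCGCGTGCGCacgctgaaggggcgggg

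The promoter of Cox8b, the member with the largest change in liver, held neither of these motifs (chr7:140900397-140900696, minus strand, same build). It held CAGCTG, an E-box of the type bound by myogenic factors, at 2 places and TATAAA at 1, all in capitals. CAGCTG was in 8.45% of the members' windows and 16.3% of all windows, and TATAAA in 11.3% and 13.6%. The MEF2-type motif, CTA and TAG with any 4 bases between them, was in 1.41% of the members' windows, in Cox5b, and 3.69% of all windows.
Cox8b promoter: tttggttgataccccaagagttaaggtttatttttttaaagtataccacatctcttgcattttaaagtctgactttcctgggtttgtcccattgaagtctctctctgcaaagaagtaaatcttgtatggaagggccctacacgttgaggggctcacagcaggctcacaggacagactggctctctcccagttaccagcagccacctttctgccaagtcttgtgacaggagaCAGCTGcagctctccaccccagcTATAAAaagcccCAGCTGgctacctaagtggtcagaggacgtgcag

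Genes that build, feed and regulate the chain were counted from lists outside the members. In the colorectum 5 of 78 mitochondrial ribosomal protein genes rose in high libraries and none fell, 6.41% against the 15.5% of all genes called, with a median log2 change of 0.26. Mrpl9, of the large subunit, averaged 90.0 ± 9.58 CPM in high and 63.0 ± 5.56 CPM in low colorectum (SD, n = 6 and 4), at 0.51 ± 0.11 (adjusted p = 0.0103, edgeR), and kept its call in all 11 fits that left out libraries. Mrps6, Mrpl21 and Mrps24 stood at 0.95, 0.36 and 0.52 (adjusted p = 0.0338, 0.0438 and 0.0441), and lost their calls in 5, 8 and 9 of those 11 fits. Of 54 assembly factors 1 was called, Ttc19 of complex III, which fell by 0.52 (adjusted p = 0.0237), with -0.39 and an adjusted p of 0.0917 without low libraries 3 and 4. Of 33 genes of mitochondrial DNA upkeep and transcript handling 1 was called, Lrpprc, which stabilises mitochondrial messenger RNAs, and it fell by 0.48 (adjusted p = 0.0364), with -0.24 and an adjusted p of 0.183 without low libraries 3 and 4.

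Among 16 regulators of respiratory genes, 3 fell in high colorectum and none rose (18.8% called), close to the 15.5% of all genes called. Pparg averaged 46.8 ± 7.65 CPM in high and 82.6 ± 7.80 CPM in low colorectum, at -0.82 ± 0.13 (adjusted p = 0.00245, edgeR), and Ppara 6.87 ± 2.19 CPM in high and 23.6 ± 12.2 CPM in low colorectum, at -1.78 ± 0.33 (adjusted p = 0.00600). Both nuclear receptors of lipid use kept their calls without low libraries 3 and 4 (adjusted p = 0.00264 and 0.00413). Esrrb, an oestrogen-related receptor, fell by 3.48 (adjusted p = 0.0268), and without those libraries stood at -1.03 (adjusted p = 0.0978). Pdk4, the kinase that shuts pyruvate dehydrogenase, was the 1 called gene of 22 in the citric acid cycle list (4.55%). It fell by 1.70 (adjusted p = 0.0323, edgeR). It lost its call in 7 of the 11 fits that left out libraries, and without low libraries 3 and 4 stood at -1.72 (adjusted p = 0.0132). Of 20 tested electron carrier and coenzyme Q genes 3 were called (15.0%). Dhodh rose by 0.46 and Coq4 and Etfb fell by 0.44 and 0.51 (adjusted p = 0.0368, 0.0349 and 0.0424, edgeR). Without low libraries 3 and 4 these 3 genes stood at 0.42, -0.39 and -0.35 and did not pass (adjusted p = 0.1, 0.111 and 0.173, edgeR). Slc25a4, the muscle and heart form of the ADP/ATP carrier, fell by 0.71 (adjusted p = 0.0182), with an adjusted p of 0.0560 without those libraries.

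In the liver none of 78 mitochondrial ribosomal protein genes and none of 53 assembly factors passed, where 6.47% of all genes did. Of 16 regulators 3 rose and 1 fell. Perm1, a muscle-enriched regulator of oxidative genes, averaged 1.59 ± 0.272 CPM in high and 0.316 ± 0.0471 CPM in low liver (SD, n = 3 each), at 2.33 ± 0.28 (adjusted p = 0.00163, edgeR). The coactivator Ppargc1b stood at 1.22 ± 0.22 (adjusted p = 0.0141) and Ppara at 0.72 ± 0.15 (adjusted p = 0.0216), which lost their calls in 1 and 4 of the 6 fits that left out 1 library. Ppard fell to 6.03 ± 0.723 CPM in high liver, against 41.8 ± 3.65 CPM in low liver, at -2.79 ± 0.13 (adjusted p = 2.0e-05).

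Clpx, the unfoldase of the mitochondrial ClpXP protease, fell to 104 ± 18.9 CPM in high liver, against 295 ± 18.3 CPM in low liver, at -1.50 ± 0.14 (adjusted p = 6.1e-04, edgeR). Top1mt, the mitochondrial topoisomerase, fell by 0.42 (adjusted p = 0.0456) and lost its call in each of the 6 fits that left out 1 library and with the replicate number as a block (adjusted p = 0.0989). Pdk4 fell by 1.35 (adjusted p = 0.00300) and Coq8a, a kinase-like factor of coenzyme Q synthesis, by 0.99 (adjusted p = 0.00188). Slc25a4 averaged 19.6 ± 2.17 CPM in high and 6.12 ± 0.923 CPM in low liver, at 1.68 ± 0.14 (adjusted p = 3.7e-04). Perm1 and Slc25a4 are abundant in striated muscle, whose markers were higher in the same libraries. The part of muscle RNA in the values of these genes was not tested.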

How the data were processed

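Total RNA was taken up in Trizol and made into libraries with a NEBNext Ultra kit, per the labels' protocols. For each library the authors deposited an estimated count and a TPM value (transcripts per 1000000, corrected for length) per gene ID. The build was GRCm39, per the submitters' processing notes, while for the aligner and quantifier the sources used here give no name. Symbols came from GENCODE M21 (35877 of 36118 IDs, 99.3%), copies from its transcripts with BLAST+ 2.17.0 (at least 95% identical over at least 100 bases), and promoters from RefSeq GRCm38.p6, so no coordinates of the files were used. Mitochondrial rRNA and tRNA genes are not analysed here.

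Estimated counts were rounded, filtered with filterByExpr, scaled by TMM and tested per tissue with edgeR 4.0.16 (robust quasi-likelihood test, two-sided, Benjamini-Hochberg over all genes, threshold 0.05) in R 4.3.3. The biological coefficient of variation was 35.5% in the colorectum and 23.2% in the liver. The tissue difference is the interaction in 1 fit over all libraries. Each fit was tested on simulated data. Alternatives were other scalings, filters and tools (DESeq2 1.42.0, limma 3.58.1), limma on log2(TPM + 1) or log2(TPM + 0.1), a replicate block, and each library left out. Adding copies to their members was chosen after the data were seen. Same-numbered liver libraries deviated together (correlations 0.55, 0.28 and 0.18), so the number was taken to pair them, and block values are given where they change a call. The labels do not say what the number marks.

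Named genes were the mitochondrial members, per tissue and complex up to 5 nuclear members with the smallest p, the Sdh genes, the isoforms and their partners, and up to 4 called genes of each other list. Of the 60 members so named, those printed were picked after their values were seen. The members and lists were chosen with earlier results of these data known.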

Additional observations from a re-analysis of the deposited data

Results flagged for a closer look

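A gap test for a library far from the others of its group was run on 124 groups of colorectum values and picked out 12. For a single group chance gives about 1 in 20. The groups share the same libraries and are not independent, so the count cannot be judged against that rate. Low library 3 accounted for 8 of them. It was the highest low library for mt-Nd1 at 14700 CPM, for the mitochondrial sum at 238000 TPM and for the ratio of the mitochondrial to the nuclear sum at 9.91. It was the lowest for Atp5j2 at 153 CPM, Cox7b at 120 CPM, Ndufa7 at 57.8 CPM, Cox7a1 at 4.17 CPM and Cox6b2 at 0.854 CPM. Among high libraries, library 2 stood highest for mt-Nd4l at 301 CPM and for the ratio at 1.89, library 1 highest for Sdha at 527 CPM, and library 4 lowest for mt-Nd2 at 641 CPM.

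The effect in the colorectum was lower than that in the liver for Cox8b by a log2 difference of -5.51, for Cox6a2 of -4.33 and for Ndufa4l2 of -1.28, each past the threshold in the interaction test (edgeR). None of the 3 passed with the replicate number as a block (adjusted p = 0.0614, 0.169 and 0.23, edgeR), which also used the colorectum numbers that do not pair those libraries. Ndufa4l2 lost its call in 12 of 16 fits that left out 1 library. The chromosome 1 copy Gm28437, which is no member, averaged 7520 TPM in high liver and 1050 TPM in low liver, with no overlap between the groups, and its log2 change of 3.08 ± 1.58 did not pass (adjusted p = 0.352, edgeR).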

How the results depend on the processing

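The main fits called 4 members in the colorectum (3 mitochondrial, 1 nuclear), 5 in the liver (2 and 3) and 3 in the tissue difference. In the colorectum, members called were 13 with DESeq2's Wald test (10 mitochondrial, 3 nuclear), 9 with all 16 libraries in 1 fit (8 mitochondrial), 1 with limma-voom (0 mitochondrial), 1 on log2(TPM + 0.1) (1 mitochondrial), and 0, with 0 mitochondrial, without a count filter, on log2(TPM + 1) with or without a TPM filter, with the replicate block, and without low libraries 3 and 4. The nuclear call was lost (0 called) with DESeq2 size factors, library totals, the mitochondrial genes left out, no count filter, all 3 TPM fits, the block, and without low libraries 3 and 4. All genes called were 2784 in the main fit, 1647 on log2(TPM + 1), 1662 on log2(TPM + 0.1), 1431 without a TPM filter and 477 with the block. For DESeq2's Wald test, all 16 libraries and limma-voom the count of all genes is not given here. The member counts of those fits therefore have no background share beside them and are no result about the members. Same-numbered colorectum libraries correlated at -0.13 to -0.05, so the number does not pair them there, and 0 of 8 libraries matched their own number best. Without low libraries 3 and 4 the mitochondrial median was -0.21.

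In the liver, members called were 9 with library totals (7 nuclear), 9 with DESeq2's Wald test (6 nuclear), 23, 24 and 8 on log2(TPM + 1), log2(TPM + 0.1) and without a TPM filter (22, 23 and 7 nuclear, 1 mitochondrial in each), 2 with all 16 libraries (0 mitochondrial) and 3 with copies added (0 mitochondrial). All genes called were 1004 in the main fit, 1742 with DESeq2's Wald test, 1697 and 1692 on the TPM scales, 446 with all 16 libraries and 630 with the replicate block, where 5 members were called. In the TPM fits the mitochondrial median was 0.00 and the nuclear one -0.23, -0.23 and -0.22. In the tissue difference 9 members were called with DESeq2's Wald test, 1 with limma-voom and 0 with the block, which used the numbers of both tissues. The counts of all genes in these fits are not given here, so these member counts also lack a background share.

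Of the named genes, none that passed a main test reversed except mt-Co3 in liver (0.11 with copies added). The others that reversed had not passed. In the colorectum Cox6a2 stood at 0.27 with limma-voom and 0.20 with the block, Cox6b2 at 0.24 with limma-voom, 0.15, 0.20 and 0.15 in the TPM fits and 0.16 with the block, Sdhc at -0.01 in the TPM fits and -0.00 with the block, and, without low libraries 3 and 4, mt-Nd6 at 0.07 and Cox8b at -0.43. In liver mt-Nd1 stood at -0.01, mt-Nd2 at -0.08, mt-Nd5 at -0.10 and mt-Cytb at -0.10 in the TPM fits, and mt-Co2 at 0.20 with copies added. The cause was not tested.

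Leaving out 1 library at a time, the colorectum had 0 to 6 members called, 0 to 6 of them mitochondrial and 0 to 2 nuclear, among 1592 to 3654 genes, and mitochondrial medians of -1.18 to -0.41. Ranges over these fits were -0.20 to 0.03 for Sdha, -0.12 to 0.07 for Sdhb, -0.00 to 0.20 for Sdhc, -0.93 to 0.07 for Cox6a2, -0.40 to 0.10 for Cox6b2 and -0.30 to 0.32 for Cox8b. The liver had 3 to 8 members called, 1 to 3 mitochondrial and 2 to 5 nuclear, among 387 to 935 genes, with nuclear medians of -0.14 to 0.09. The ranges in liver were -0.03 to 0.26 for mt-Nd2, -0.03 to 0.24 for mt-Nd5 and -0.51 to 0.29 for mt-Co2, and the tissue difference had 1 to 3 members called.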
